A study of Mus musculus with 8 samples.

Results

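Mpo, Elane, Prtn3, Ctsg and Ms4a3 are genes of early neutrophil precursors, and their RNA was measured in cells sorted as early B lineage cells from mouse bone marrow. They were chosen by symbol, as primary (azurophil) granule genes of promyelocytes, with earlier results of these data known. They are 5 of the 52550 genes listed for each library. The label azurophil granule gene holds for Mpo, Elane, Prtn3 and Ctsg, whose products are stored in that granule. Ms4a3 encodes a membrane protein of granulocyte-monocyte progenitors and is not known as granule cargo.

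Bone marrow of untreated C57BL/6J mice, either wild type (WT) or lactoferrin knockout (Lf-/-), was the source of the pre-pro-B and pro-B fractions whose RNA was sequenced. Lactoferrin, encoded by Ltf, is an iron-binding protein of the specific granules of neutrophils. There were 7 libraries: for Lf-/-, 2 at each stage, and for WT, 2 of pre-pro-B and 1 of pro-B, with a further WT sample of pro-B cells not analysed here. The study compared the genotypes to see which transcripts change with lactoferrin deficiency at these stages. The WT animals were age-matched littermates, the age is not given in the sources used here, and the cells were sorted by flow cytometry on surface markers of the B lineage. The methods describe several mice in each group, but neither they nor the labels say whether each library came from a mouse of its own, so p-values measure only the spread between these libraries, which may be technical.

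Azurophil granules are the first granules that a developing neutrophil makes. Their proteins are transcribed almost only at the promyelocyte stage, and transcription stops as the cell goes on to make specific granules and then gelatinase granules. Myeloperoxidase (Mpo) makes hypochlorous acid from hydrogen peroxide, and neutrophil elastase (Elane), proteinase 3 (Prtn3) and cathepsin G (Ctsg) are serine proteases that are activated by cathepsin C before storage. B lineage cells are not known for expressing any of these genes.

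The genes lie at 4 places in the GRCm38 genome, as given by GENCODE M21. Mpo (ENSMUSG00000009350) spans chromosome 11 from 87793581 to 87804413 on the plus strand. Elane (ENSMUSG00000020125) spans chromosome 10 from 79886247 to 79888215 and Prtn3 (ENSMUSG00000057729) from 79874476 to 79883174, both on the plus strand and 3072 bases apart. Ctsg (ENSMUSG00000040314) spans chromosome 14 from 56099881 to 56102574 and Ms4a3 (ENSMUSG00000024681) chromosome 19 from 11629496 to 11640851, both on the minus strand.

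The 250 bases before the RefSeq start of each gene (GRCm38.p6) were searched on both strands for core motifs of factor families known from myeloid promoters, and the motifs were chosen after these sequences had been seen. GGAAGT, a core of the ETS family to which the myeloid factor Spi1 (PU.1) belongs, was found in 5 of 5 windows, each time once and on the strand of the gene, and in 19.7% of the 32851 windows of all RefSeq genes. Distances are from the RefSeq start, which for Mpo, Elane and Prtn3 lies downstream of the GENCODE start given above. The Prtn3 stretch therefore falls inside the GENCODE span of the gene. The stretches are shown because GGAAGT is the only searched motif that every member shares, with the motif in capitals and 10 bases on either side, 5′ to 3′ on the strand of the gene.
Mpo (chr11:87793552-87793577, plus, 222 bases before the start): gagagagagaGGAAGTtgcctttgtc
Elane (chr10:79886219-79886244, plus, 83 bases before the start): gtcccagggaGGAAGTagggctgtgg
Prtn3 (chr10:79879564-79879589, plus, 93 bases before the start): actggaaggaGGAAGTgggacccaca
Ctsg (chr14:56102764-56102789, minus, 205 bases before the start): aggaagaaaaGGAAGTagtcacctgt
Ms4a3 (chr19:11640891-11640916, minus, 55 bases before the start): gtatacttggGGAAGTgggtgggcca
AACNG, a MYB core, was in 4 of 5 windows and in 74.2% of all windows, TGTGGT, a RUNX core, in that of Ctsg alone and in 14.0% of all, and TTGCNNAA, a CEBP core, in 0 of 5 and in 9.56% of all. A match describes letters and is not a measured binding site. Of genes of these families, Spi1 lay between 115 and 193 FPKM and Cebpe between 121 and 269 FPKM over the 7 libraries, whereas Myb lay between 3.13 and 5.60 FPKM, Runx1 between 2.68 and 4.91 FPKM and Cebpa between 0 and 3.92 FPKM.

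Levels are given as FPKM, fragments per kilobase of transcript scaled to the total of the library, so they can be compared between genes. Elane was the most abundant member, at 13713 and 16864 FPKM for the WT pre-pro-B pair, at 10370 and 4272 for Lf-/- at that stage, at 18996 for WT pro-B, and at 2673 and 10234 for its Lf-/- counterparts. Every Lf-/- library lay below every WT library, and the lowest was 7.11-fold below the highest. Mpo was at 2778 and 5176 FPKM for the WT pre-pro-B pair, at 2543 and 1260 for Lf-/- at that stage, at 3157 for WT pro-B, and at 835 and 1818 for its Lf-/- counterparts. Again the genotypes did not overlap, although Lf-/- pre-pro-B 1 at 2543 came close to WT pre-pro-B 1 at 2778.

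Ctsg was at 2132 and 2015 FPKM for the WT pre-pro-B pair, at 1292 and 1020 for Lf-/- at that stage, at 2284 for WT pro-B, and at 596 and 1634 for its Lf-/- counterparts. The WT libraries were close together, and the highest Lf-/- library stayed below the lowest of them. Prtn3 was at 1196 and 928 FPKM for the WT pre-pro-B pair, at 714 and 496 for Lf-/- at that stage, at 1389 for WT pro-B, and at 235 and 739 for its Lf-/- counterparts, without overlap between genotypes. Ms4a3 was at 333 and 451 FPKM for the WT pre-pro-B pair, at 200 and 232 for Lf-/- at that stage, at 278 for WT pro-B, and at 84.4 and 338 for its Lf-/- counterparts. It was the member whose genotypes overlapped, since Lf-/- pro-B 2 lay above the WT pro-B library and above WT pre-pro-B 1.

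**Figure D1:**
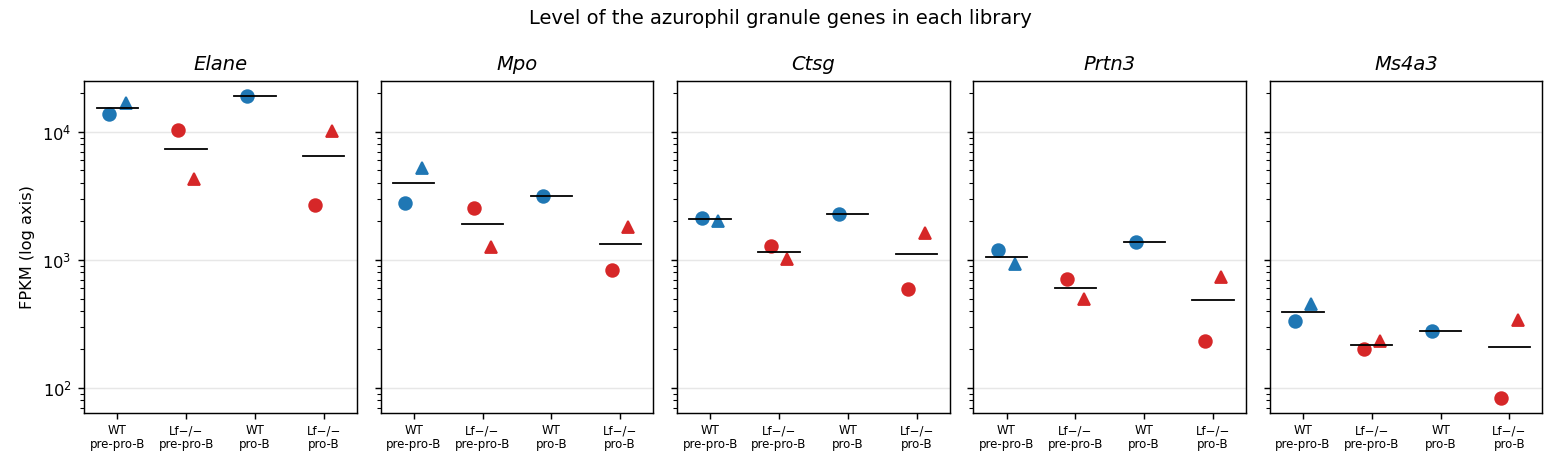
FPKM of the 5 genes (log axis) in each library by group, with circles for replicate 1, triangles for replicate 2, blue for WT, red for Lf-/- and a bar at the group mean (n = 2, or 1 for WT pro-B). The Lf-/- libraries lie below the WT libraries for Elane, Mpo, Ctsg and Prtn3, and the lowest point of every gene is Lf-/- pro-B 1.

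The order Elane, Mpo, Ctsg, Prtn3, Ms4a3 held in 7 of 7 libraries. The closest neighbours were Mpo and Ctsg, whose log2 ratio lay between 0.15 in Lf-/- pro-B 2 and 1.36 in WT pre-pro-B 2, and across libraries their FPKM ranges overlapped. The log2 ratio of Prtn3 to Ctsg was the steadiest of the 10 pairs, between -1.34 and -0.72, and that of Elane to Ms4a3 the most variable, between 4.20 and 6.10. Over the 7 libraries the pairwise Pearson r of log2 levels ran from 0.81 for Mpo with Ms4a3 to 0.98 for Prtn3 with Ctsg, as a description over libraries that share genotypes and stages. Together the 5 genes took 2.52%, 3.28% and 3.13% of the summed FPKM in the WT libraries, compared with 1.81% and 1.05% for Lf-/- pre-pro-B and 0.602% and 2.02% for Lf-/- pro-B. About 1400 fragments, for Ms4a3, was the smallest count behind a member value in the 6 libraries whose depth could be read, so counting error was small beside the spread between libraries.

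The libraries were checked against their labels. Ltf was at 2143, 2731 and 2650 FPKM in the WT libraries and between 88.2 and 168 FPKM in the Lf-/- libraries, a log2 difference of -4.38 ± 0.33 (SE, adjusted p = 0.00206 by limma). Depth read from the smallest step of the values was about 11000000 to 16000000 fragments in 6 libraries and unknown in Lf-/- pre-pro-B 2, which listed 12172 genes above 0 compared with 19477 to 20250 in the others. The B lineage label was weakly met: the 19 early B lineage genes checked summed to 449 to 961 FPKM in WT and 1961 to 3987 FPKM in Lf-/- libraries, with none of them at 0 in every library. The members, the specific granule genes and the gelatinase granule and late neutrophil genes, S100a8 and S100a9 included, together took 28.1% to 56.0% of the summed FPKM. FPKM being a share of the total, abundant genes of this kind push down the values of the rest.

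In pre-pro-B cells, the 5 members were at lower levels in Lf-/- than in WT, by -1.19 to -0.82 on the log2(FPKM + 1) scale, and none passed the adjusted threshold. A difference below 0 was also seen for 48% of all genes. The difference was -1.19 ± 0.63 for Elane, -1.08 ± 0.60 for Mpo, -0.85 ± 0.44 for Ctsg, -0.82 ± 0.45 for Prtn3 and -0.84 ± 0.42 for Ms4a3 (SE, 2 against 2 libraries, limma). The adjusted p was 0.941 for each, and 0 of 9720 genes tested passed an adjusted p of 0.05, while 284 genes (2.92%), of which 0 were members, passed an unadjusted p of 0.05. In 5 of 5 members both Lf-/- libraries lay below both WT libraries, which was also the case for 17.7% of all genes tested. The members' median was -0.85 and that of all genes 0.03. Without Lf-/- pre-pro-B 2, the library with fewer genes above 0, the difference was -0.55 for Elane, -0.58 for Mpo, -0.68 for Ctsg, -0.56 for Prtn3 and -0.95 for Ms4a3, and without Lf-/- pre-pro-B 1 it was -1.83, -1.59, -1.02, -1.08 and -0.74 in the same order. Without WT pre-pro-B 2 it was -0.63 for Mpo. An exact permutation test of 2 against 2 libraries cannot give a two-sided p below 0.333, which each member reached. In bulk RNA, fewer cells of a type and less RNA per cell cannot be told apart.

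In pro-B cells, the members were again lower in Lf-/-, but only 1 WT library was there to compare with. The log2 difference of the Lf-/- mean from the WT library was -1.86 for Elane, -1.73 for Prtn3, -1.36 for Mpo, -1.21 for Ctsg and -0.71 for Ms4a3, without a test. The mean of Elane, Prtn3, Mpo and Ctsg was at least 2-fold lower, with both Lf-/- libraries below the WT library. This makes 4 of 5 members, compared with 1.12% of the 10793 genes. The median of all genes was 0.48, and 13% of them had a difference below 0, compared with 5 of 5 members. That share depended on the scaling of these 3 libraries: it was 48.5% with median-ratio scaling, 50.9% with quantile normalization and 23.2% with a total without the neutrophil genes. Both Lf-/- libraries lay below the WT library for 4 of 5 members and 6.90% of all genes as deposited, for 5 of 5 and 33.0% with median-ratio scaling, for 5 of 5 and 35.2% with quantile normalization, and for 4 of 5 and 12.6% with the total without neutrophil genes. The values rest much on Lf-/- pro-B 1: without it the difference was -0.89 for Elane, -0.91 for Prtn3, -0.80 for Mpo and -0.48 for Ctsg, and for Ms4a3 it turned to 0.28.

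With both stages in a single additive fit, every member had a difference below 0 in Lf-/-, compared with 33.2% of all genes, and none passed the adjusted threshold. The difference was -1.46 ± 0.51 for Elane (SE, adjusted p = 0.581 by limma), -1.19 ± 0.41 for Mpo (adjusted p = 0.560) and -1.19 ± 0.44 for Prtn3 (adjusted p = 0.620). For Ctsg it was -0.99 ± 0.38 (SE, adjusted p = 0.632 by limma) and for Ms4a3 -0.79 ± 0.45 (adjusted p = 0.689). As a ratio of the mean FPKM of 3 WT to that of 4 Lf-/- libraries, Elane was 2.40-fold, Mpo 2.30-fold, Prtn3 2.14-fold, Ctsg 1.89-fold and Ms4a3 1.66-fold higher in WT. An unadjusted p under 0.05 in the lower direction was met by 4 of 5 members and by 0.695% of the 10793 genes (7.17% in either direction), and an adjusted p under 0.05 by 0 of 5 members and by 0.185% of all genes.

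Every Lf-/- library lay below every WT library for Elane, Mpo, Prtn3 and Ctsg, 4 of 5 members compared with 1.13% of all genes. Under quantile normalization this count fell to 2 of 5, compared with 5.62% of all genes. It was 4 of 5 with median-ratio scaling, compared with 5.97% of all genes. With a total without the neutrophil genes it was 4 of 5, compared with 1.58%. Which members are counted can differ between scalings. Exact permutation tests of 4 against 3 libraries gave a two-sided p of 0.0571 for each of Elane, Mpo, Prtn3 and Ctsg. That is the smallest p the test can give, and for Ms4a3 the test gave 0.171. As deposited, lack of overlap in this direction was not particular to the members. It also held for 3 of 14 specific granule genes (Ltf, Lcn2 and Chil3) and, from other lists, for Plac8, Prg2, Ly6c2 and Cebpa. The members varied together over the libraries (pairwise r of 0.81 to 0.98). Counts of members, here and within each stage, are therefore not counts of independent genes. The members' median was -1.19 and the median of all genes 0.21. Since the all-gene median depended on the scaling, the members were also set against it: their median lay -1.39 from it as deposited, and -1.49, -1.19 and -1.44 from it under median-ratio scaling, quantile normalization and a total without the neutrophil genes.

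**Figure D2:**
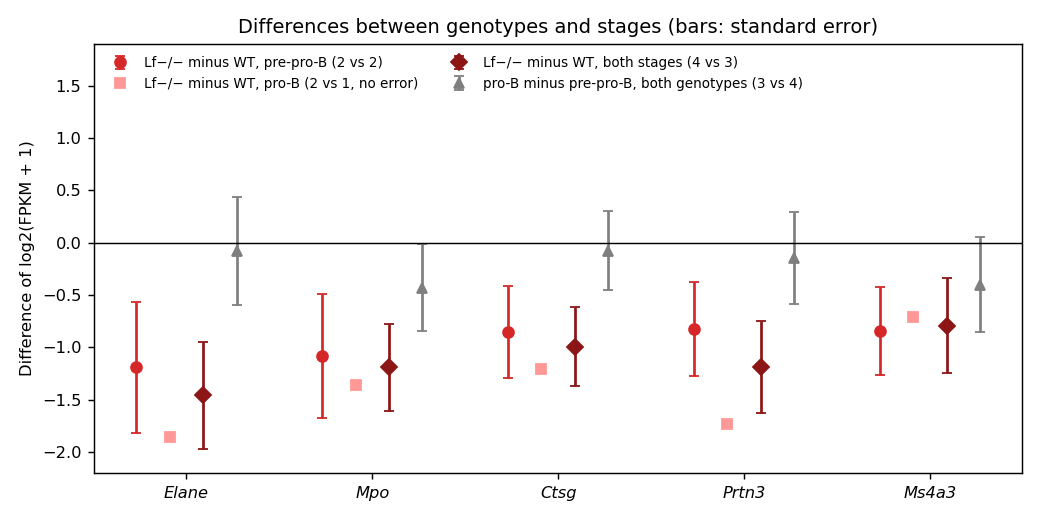
Difference of log2(FPKM + 1) for the 5 genes between genotypes, within pre-pro-B, within pro-B (2 against 1 library, no error) and over both stages, and between stages over both genotypes, with bars of 1 SE from limma. Every genotype difference lies below 0, from -1.86 for Elane in pro-B to -0.71 for Ms4a3 in pro-B, and every stage difference lies within 0.43 of 0.

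No stage difference of the members was detectable. In Lf-/- cells the pro-B minus pre-pro-B difference ran from -0.54 ± 0.61 for Mpo to -0.22 ± 0.61 for Ctsg (SE, 2 against 2 libraries, adjusted p = 0.9998 for each by limma), below 0 for 5 of 5 members and for 39.6% of all genes, and 0 of 10311 genes passed the adjusted threshold. An unadjusted p under 0.05 was met by 0 of 5 members and by 351 genes (3.4%). The libraries of the stages overlapped for every member, so 0 of 5 were lower without overlap, compared with 4.86% of all genes tested. In WT cells, the single pro-B library was above both pre-pro-B libraries for Elane (0.32), Prtn3 (0.40) and Ctsg (0.14), which makes 3 of 5 members compared with 9.52% of all genes. It was below both for Ms4a3 (-0.48), as for 64.4% of all genes, and between them for Mpo (-0.26). These positions and shares depended on the scaling of the single WT pro-B library. Under the 3 other scalings 33.3% to 40.8% of all genes, and no member, lay below both. The median of all genes was -0.28 as deposited and -0.0036 with median-ratio scaling. The share above both was not computed under the other scalings. The sign for Mpo changed in 3 of 9 alternatives and that for Ms4a3 in 1 of 9. Over both genotypes the stage difference was -0.43 ± 0.41 for Mpo, -0.40 ± 0.45 for Ms4a3, -0.15 ± 0.44 for Prtn3, -0.08 ± 0.51 for Elane and -0.07 ± 0.38 for Ctsg (SE, adjusted p from 0.947 to 0.981 by limma). All 5 were below 0, as were 52.6% of all genes, 0 of 5 members and 2.41% of all genes had an unadjusted p under 0.05, and 0.00927% of all genes, a single gene and no member, had an adjusted p under 0.05. The sign for Prtn3, Elane and Ctsg changed with the scaling or with the library left out, and that for Ms4a3 without Lf-/- pro-B 1. The genotype by stage interaction was -0.91 ± 0.93 for Prtn3, -0.67 ± 1.18 for Elane, -0.36 ± 0.85 for Ctsg, -0.27 ± 0.94 for Mpo and 0.13 ± 1.01 for Ms4a3 (SE, adjusted p of at least 0.990 by limma), with 0 of 10793 genes past the adjusted threshold and an unadjusted p under 0.05 in 0 of 5 members and 296 genes (2.74%), so the genotype differences of the stages were not shown to differ.

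The libraries differed among themselves within Lf-/- as much as between genotypes. Lf-/- pro-B 1 was the lowest library for 5 of 5 members, at 84.4 to 2673 FPKM, and Lf-/- pro-B 2 of the same group was from 2.18-fold (Mpo) to 4.001-fold (Ms4a3) above it. Leaving out Lf-/- pro-B 1 brought the combined difference to -1.09 for Elane, -0.99 for Mpo, -0.85 for Prtn3, -0.73 for Ctsg and -0.47 for Ms4a3. Leaving out Lf-/- pre-pro-B 2, the library with fewer genes above 0, brought it to -1.21, -0.97, -1.15, -0.95 and -0.83 in the same order. No choice of 1 library to leave out changed the sign of a member in this fit.

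The members were next compared with the other contents and the processing machinery of the azurophil granule. Of 15 such genes 14 were tested in the combined fit, 5 were lower and 9 higher in Lf-/-, and 0 passed the adjusted or the unadjusted threshold, with a median of 0.06. Cd63, the tetraspanin of the azurophil granule membrane, had levels of 279, 237 and 232 FPKM for the WT libraries, compared with 175, 145, 101 and 244 FPKM in Lf-/- (-0.63). Prss57, a further serine protease of this granule, lay between 41.6 and 57.2 FPKM in WT and between 17.1 and 48.5 FPKM in Lf-/- libraries (-0.58). Ctsc, the cathepsin that activates the serine proteases, was at 3.93 to 11.9 FPKM in WT and 6.29 to 30.2 FPKM in Lf-/- libraries (0.65). Srgn, the proteoglycan that packs the proteases in the granule and the most abundant gene of this list, lay between 550 and 689 FPKM in WT and between 473 and 568 FPKM in Lf-/- (-0.25). The median of this list turned to -0.30 with median-ratio scaling and to -0.24 with quantile normalization, with 11 of 14 genes lower in each, and to -0.12 with a total without the neutrophil genes, with 10 of 14 lower.

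Protease inhibitors showed no called difference in the combined fit, with 4 of 6 tested genes lower and a median of -0.09, or -0.41 to -0.25 under the other scalings. Of these 6, Cst7 and Cst3 are cystatins, which inhibit cysteine cathepsins rather than the serine proteases of the granule. Serpinb1a, the cytosolic inhibitor of elastase, proteinase 3 and cathepsin G, differed by -0.18, Cst7 by -0.58, Serpina3g by -0.41 and Cst3, the most abundant of them, by 0.19. Serpina3g was at 3.03 to 6.17 FPKM in WT, at 4.07 and 0 for Lf-/- pre-pro-B and at 14.0 and 6.27 for Lf-/- pro-B. The 0 was in Lf-/- pre-pro-B 2, the library with fewer genes above 0. In pro-B cells Serpina3g was 1.37 higher in Lf-/- and met the 2-fold rule, as 12.4% of all genes did. Of the genes of promyelocytes and granulocyte-monocyte progenitors, 8 of 11 tested were lower and 0 passed the adjusted threshold, with a median of -0.07. Under the other scalings 10 or 11 were lower with a median of -0.41 to -0.24. An unadjusted p under 0.05 by limma in the lower direction was met by 2 of the 11 and by 0.695% of all genes. Every Lf-/- library lay below every WT library for 1 of the 11 and for 1.13% of all genes. Nkg7, a granule membrane gene of cytotoxic and myeloid cells, was the lowest of the 11 at -1.09, followed by Plac8 at -0.87, Gstm1 at -0.49 and Calr at -0.30. The transcription factors of the myeloid lineage had a median of 0.26, with 9 of 11 higher and none called, but 6 of 11 were lower with median-ratio scaling (median -0.03) and with quantile normalization (-0.02), and with a total without the neutrophil genes 5 of 11 were lower (0.11). Irf8 was at 1.20, Klf4 at 0.63 and Cbfb, the partner of Runx1, at 0.57. Cebpa, which is needed for granulocyte commitment, was at -0.97 with levels of 3.92 FPKM at most. Its level was 0 in Lf-/- pre-pro-B 2, the library with fewer genes above 0.

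Among the specific granule genes and the gelatinase granule and late neutrophil genes, Ltf alone passed the adjusted threshold. Of the 14 specific granule genes 12 were lower in Lf-/-, with a median of -0.30, and the targeted Ltf was the 1 called. Fcnb (ficolin B) was at -0.77, Lcn2 at -0.65, Chil3 at -0.58 and Ngp, the most abundant, at -0.51. Of the 14 gelatinase granule and late neutrophil genes 12 were higher, with a median of 0.36 and none called, with Il1b at 1.01, Cxcr2 at 0.97, Fpr1 at 0.87 and the most abundant gene, S100a8, at -0.49. The direction of this list depended on the scaling and the stage: with median-ratio scaling 7 of 14 were higher with a median of 0.0060, with a total without the neutrophil genes 9 of 14 (0.18) and with quantile normalization 11 of 14 (0.21), and in pre-pro-B cells 9 of 14 were lower (-0.09). In pro-B cells the mean of 8 of these 14 genes was at least 2-fold higher in Lf-/- with both libraries above the WT library, compared with 12.4% of all genes, and the list median was 1.37, or 0.74 to 1.12 under the other scalings. Retnlg, named after its values were seen, was at 2269 FPKM in WT pro-B but reached 10205 and 3914 FPKM in its Lf-/- counterparts, the first of which held the lowest level of every member.

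**Figure D3:**
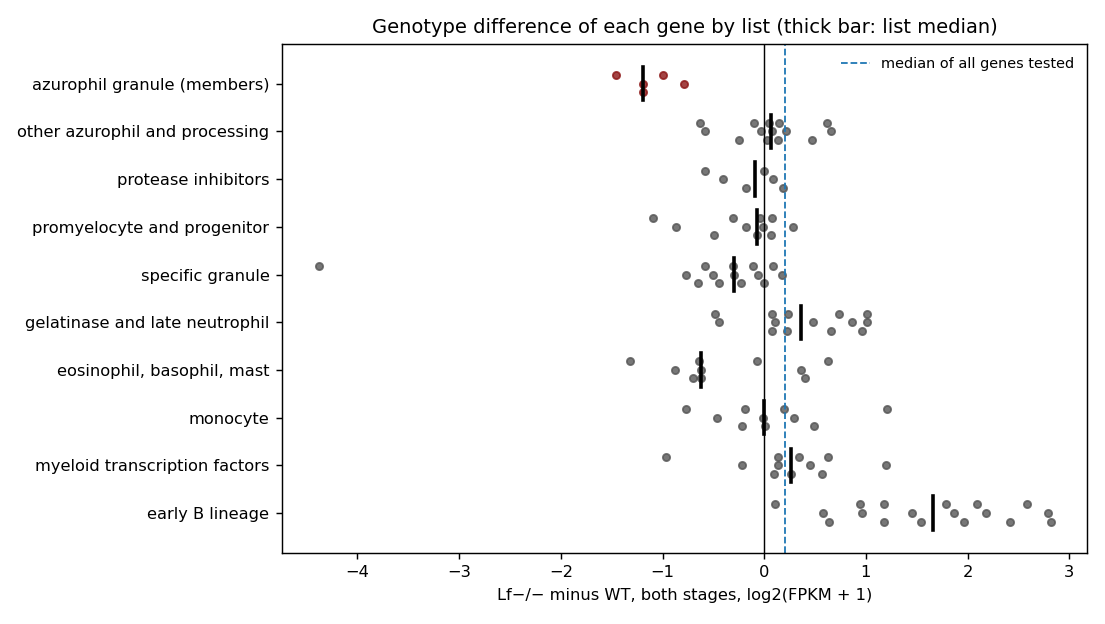
Difference of log2(FPKM + 1) between Lf-/- and WT in the combined fit for each tested gene of 10 lists, with a thick bar at the list median and a dashed line at the median of all genes tested (0.21). The 5 members lie between -1.46 and -0.79, the specific granule genes other than Ltf lie between -0.77 and 0.18, and the early B lineage genes lie between 0.10 and 2.82.

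To set the members against the later granule genes of the same library, their log2 ratio to the summed specific granule genes without Ltf was taken, which does not depend on the total. The mean ratio was lower in Lf-/- than in WT by -1.06 for Elane, -0.85 for Mpo, -0.80 for Prtn3, -0.60 for Ctsg and -0.45 for Ms4a3. Elane and Prtn3 were the members for which every Lf-/- library lay below every WT library, with Elane between -3.19 and -2.93 in WT and between -5.21 and -3.51 in Lf-/-. For Mpo, Ctsg and Ms4a3 the ratios overlapped. Ngp, Camp and Lyz2 made up most of the sum, at 54871, 38007 and 17893 FPKM in WT pre-pro-B 1. The share of all genes without overlap on this scale was not computed. Lack of overlap depended on the reference, and held for 2 members, Elane and Prtn3, over the late neutrophil list or over Ngp. Over Cebpe it held for 2 members, Prtn3 and Ctsg. It held for 1 member over Srgn (Ctsg) or over Fcnb (Prtn3), and for 0 over Retnlg. Set against Fcnb alone, the differences were smaller, at -0.68 for Elane, -0.47 for Mpo, -0.42 for Prtn3, -0.22 for Ctsg and -0.07 for Ms4a3.

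**Figure D4:**
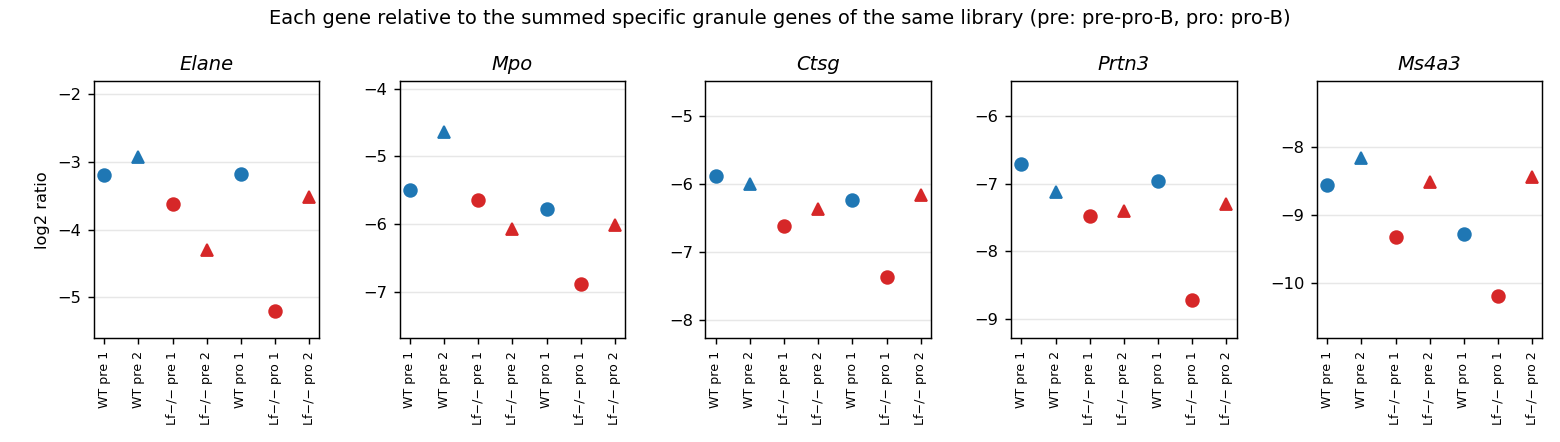
Log2 ratio of each gene to the summed FPKM of the 13 specific granule genes other than Ltf in each library, with WT in blue, Lf-/- in red, circles for replicate 1 and triangles for replicate 2, and the same height of axis in every panel. The Lf-/- points of Elane and Prtn3 lie below all WT points, and those of the other genes overlap with them.

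The relatives and neighbours of the members were looked at next. Epx, the eosinophil peroxidase and the closest expressed relative of Mpo, was at 37.9, 44.3 and 18.4 FPKM in the WT libraries, at 11.5 and 52.3 for Lf-/- pre-pro-B and at 2.41 and 21.7 for Lf-/- pro-B, so that the genotypes overlapped, and Lpo, the gene next to Mpo, was listed at 0 in every library. Beside Elane, Cfd was at 0.317 FPKM at most, Ptbp1, a splicing factor, was at 0.60 and Plppr3 at -0.80 in the combined fit. Mcpt8, the mast cell protease gene of basophils that lies next to Ctsg, was at 211, 193 and 164 FPKM in WT, at 85.9 and 56.7 for Lf-/- pre-pro-B and at 855 and 580 for Lf-/- pro-B, above every WT library there while Ctsg was below. In the Ms4a family, Ms4a1, which encodes CD20 of B cells, was higher in Lf-/- by 2.68 ± 0.33 (SE, adjusted p = 0.0273 by limma). Of 10 tested genes of the family 8 were higher and 2 lower, while 33.2% of all genes were lower. Ms4a6b was at 0.85 and Ms4a4a at 0.84, both highest in Lf-/- pre-pro-B 2, the library of unknown depth. There Ms4a6b was at 26.4 FPKM, compared with 3.02 to 9.32 in the other Lf-/- libraries and 2.15 to 8.10 in WT. Ms4a4a was at 40.5 FPKM there, compared with 5.76 to 7.76 in the other Lf-/- libraries and 2.64 to 10.2 in WT.

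Shared sequence was looked for among the annotated transcripts. Gm11505 overlaps Mpo and shares 209 identical bases with it, at 5.00 to 26.1 FPKM, and Plppr3 overlaps Prtn3 over 159 bases, at 0 to 3.59 FPKM, so the share of reads that could be misplaced is small beside either member. For Elane, Ctsg and Ms4a3 no other gene reached 90% identity over 100 bases.

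Of the marker lists for other cell types, only that of the early B lineage held genes called in the combined fit. The early B lineage genes were higher in Lf-/- for 18 of 18 tested, with a median of 1.66. Over all genes 33.2% were lower and the median was 0.21. Cd79b at 2.82 and Cd79a at 2.79 were among those called (adjusted p of 0.0136 and 0.0273 by limma), with Vpreb3 at 2.42. Under the 3 other scalings 1 of the 18 turned lower. The monocyte genes had a median of 0.00, with 5 of 10 lower (-0.33 to -0.15 and 6 or 7 lower under the other scalings), Ly6c2, the most abundant, at -0.77 and Ctss at 1.21. The eosinophil, basophil and mast cell genes had a median of -0.62, with 7 of 10 lower and Prg2, the eosinophil major basic protein, at -1.32. In pre-pro-B cells 10 of 10 were lower, as were 48% of all genes, with a median of -1.02 compared with -0.85 for the members. An unadjusted p under 0.05 by limma was met there by 4 of these 10, by 0 of 5 members and by 2.92% of all genes. Split after their values were seen, the median of 5 eosinophil genes relative to WT pre-pro-B was -1.36 for WT pro-B, -1.91 and 0.00 for Lf-/- pre-pro-B and -2.54 and -0.71 for Lf-/- pro-B, and that of 6 basophil and mast cell genes was -1.01 and -0.999 for Lf-/- pre-pro-B but 1.85 and 1.56 for Lf-/- pro-B. The part of the make-up of the sorted cells in the differences of the members was not tested.

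**Figure D5:**
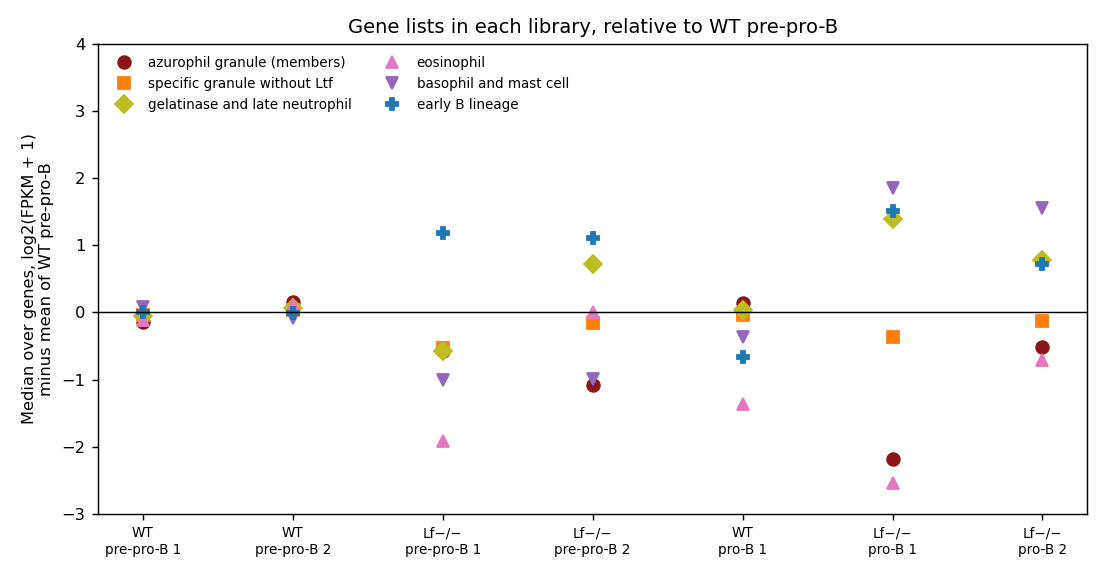
Median over each list of log2(FPKM + 1), relative to the gene's mean in WT pre-pro-B, in every library. The members (dark red circles) are at -0.58 and -1.08 in Lf-/- pre-pro-B and at -2.18 and -0.51 in Lf-/- pro-B, while the early B lineage genes (blue crosses) lie above 0 in the 4 Lf-/- libraries and the late neutrophil genes (olive diamonds) above 0 in 3 of them.

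The genes whose pattern over the 7 libraries was most like the mean of the members were ranked by Pearson r among 9785 genes, as a description, and r had a median of -0.31 over all of them. The 10 closest outside the members were Rps12-ps10 (0.98), Gm10182 (0.97), Mt1 (0.97), Atp6v0c-ps1 (0.96), Gm6750 (0.96), Gm26316 (0.95), Hmgn2-ps1 (0.95), Tuba8 (0.94), Cd63 (0.94) and Gm10357 (0.93). By symbol, 3 of them are processed pseudogenes of ribosomal, proton pump and chromatin genes, whose reads may belong to their parent genes. Mt1, a metal-binding metallothionein, had WT levels of 231, 207 and 258 FPKM and Lf-/- levels of 148, 81.6, 62.4 and 141, without overlap. Tuba8, an alpha tubulin, had WT levels of 44.8, 58.7 and 43.1 FPKM and Lf-/- levels of 28.0, 13.1, 12.2 and 38.1, also without overlap. Rps12-ps10, Atp6v0c-ps1 and Gm26316 did not overlap either, whereas Gm10182, Gm6750, Hmgn2-ps1, Cd63 and Gm10357 did. Every Lf-/- library lay below every WT library for 1.13% of all genes. These 10 genes were picked for their likeness to the members, so lack of overlap follows in part from that choice. Among the lists, the median r was 0.63 for the specific granule genes, -0.68 for the gelatinase granule and late neutrophil genes and -0.76 for the early B lineage genes.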

How the data were processed

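The authors deposited one FPKM value per gene and library, without counts. GRCm38, TopHat, Cufflinks, HTSeq and DESeq are named in the submitters' processing notes without versions or roles, so how multiply aligned reads were treated is not given in the sources used here. Values were transformed to log2(FPKM + 1), which understates changes of low genes. Genes reaching 1 FPKM in 2 or more of the libraries compared were fitted in limma 3.58.1, under R 4.3.3 and with a trend of variance on level, with two-sided p-values and Benjamini-Hochberg adjustment over all genes tested. In the comparisons with 1 WT pro-B library a gene was called when it was at least 2-fold apart with both libraries on the same side. Exact permutation tests used scipy 1.17.1 and figures matplotlib 3.10.9, with Python 3.11.15, numpy 2.4.6 and pandas 2.3.3. Transcripts were compared with blastn 2.17.0. Depth was read from the commonest low value times transcript length.

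Gene identifiers were matched to GENCODE M21 (52403 of 52550), and all 159 list entries matched. The lists, written by hand, and the members were chosen with earlier results of these data known. Besides the members, the 4 list genes with the largest difference in the combined fit, the most abundant gene of a list and the 10 genes most like the members were named, and some of the list genes so chosen are not reported here. Fits were tested on simulated data. The alternatives were median-ratio scaling, quantile normalization, a total without neutrophil genes, a pseudocount of 0.1, no filter, at least 1 FPKM in every library, all 7 libraries in 1 fit, the replicate number as a block, and each library left out. Same-numbered libraries did not deviate together (r of 0.04 between genotypes in pre-pro-B and -0.01 between stages in Lf-/-).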

Additional observations from a re-analysis of the deposited data

How the results depend on the processing

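In both tested genotype comparisons, each member stayed lower in Lf-/- under every alternative tried, with differences over both stages from -1.85 to -1.09 for Elane, -1.55 to -0.97 for Mpo, -1.55 to -0.82 for Prtn3, -1.36 to -0.73 for Ctsg and -1.15 to -0.47 for Ms4a3, and adjusted p from 0.0929 to 0.951 by limma. With 2 libraries a group and 1 WT pro-B library, differences of the size seen cannot be separated from the spread between libraries, and the depth of Lf-/- pre-pro-B 2 is unknown. The causes of the changes below were not tested.

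Leaving out 1 library moved the number of genes called between 0 and 3338 in pre-pro-B, between 10 and 3043 between the stages in Lf-/-, between 0 and 123 for genotype over both stages, between 0 and 36 for stage over both genotypes, between 0 and 561 for the interaction, and between 620 and 708 for stage in WT. The members' median for stage in Lf-/- then ran from -1.32 to 0.51, with Mpo from -1.10 to 0.022, Elane from -1.32 to 0.62 (0.29 without Lf-/- pre-pro-B 1), Prtn3 from -1.34 to 0.31, Ctsg from -0.94 to 0.51 and Ms4a3 from -1.34 to 0.64. For stage over both genotypes the median ran from -0.50 to 0.32, with Elane from -0.50 to 0.47 (0.31 without Lf-/- pre-pro-B 1), Prtn3 from -0.51 to 0.36 (0.07), Ctsg from -0.40 to 0.32 (0.05) and Ms4a3 from -0.91 to 0.082. The positive ends come from leaving out Lf-/- pro-B 1. The interaction ran from -1.08 to 0.30 for the median, -0.83 to 0.29 for Mpo (0.17 without WT pre-pro-B 1 and 0.23 without Lf-/- pre-pro-B 1), -1.64 to 0.30 for Elane, -1.08 to 0.37 for Ctsg and -0.86 to 1.13 for Ms4a3 (-0.09 without WT pre-pro-B 2).

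Median-ratio scaling called 833 genes in pro-B and 7 over both stages, with a members' median of -2.005 in pro-B, and turned the stage difference over both genotypes to 0.031 for Elane and 0.037 for Ctsg and the interaction to -0.34 for Ms4a3. Quantile normalization called 753 genes in pro-B, 11 for genotype over both stages and 0 for stage, and gave 0.16 for Ctsg between the stages in Lf-/-, 0.0090 for Prtn3 and 0.26 for Ctsg between the stages over both genotypes, and -0.28 for Ms4a3 in the interaction. A total without neutrophil genes called 12 for genotype and 0 for stage, with stage differences of 0.090 for the median, 0.16 for Elane, 0.090 for Prtn3 and 0.16 for Ctsg. A pseudocount of 0.1 called 2853 genes in pro-B, 1135 for stage in WT, 9 for genotype over both stages and 0 for stage. No filter called 0, 0 and 122 for genotype, stage and interaction, and at least 1 FPKM in every library called 63 for genotype and 6 for stage.

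With the replicate block, 65 genes were called in pre-pro-B, 84 between the stages in Lf-/- and 8 between the stages over both genotypes, compared with 0, 0 and 1 without it, and no member was among them. The labels give the same number to libraries of both stages without saying that they come from the same mouse. The block called 22 genes for genotype over both stages compared with 20, and it changed no call of a member.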
